A study of Mus musculus with 12 samples.

Results

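The interferon-stimulated genes and interferon-inducible GTPases of the mouse hippocampus were followed here: 35 genes, chosen by symbol from the 78298 genes of the deposited expression table. They comprise 4 transcription factors of the response, 4 IFIT genes, 3 genes of the ISG15 system, 3 OAS genes, 12 further genes (an RNA sensor and effectors), 6 immunity-related GTPases (IRG) and 3 guanylate-binding proteins (GBP). Of the 35 genes, 34 had enough counts to be tested. Mx1, a gene of the dynamin-like GTPase family, did not pass the count filter: it had at most 9 estimated counts in a library and 0 in Model replicate 3.

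Poly(A) RNA of the hippocampus was sequenced from male C57BL/6 mice bought at 6 to 8 weeks of age, acclimated for 7 days and kept in the study if they preferred sucrose. Control mice were left unstressed and received saline. Model mice went through 28 days of chronic unpredictable mild stress, a changing series of mild stressors used to model depression, again with saline. In the Treatment group the same 28 days of stress were combined with poricoic acid A, a triterpene acid found in the fungus Poria cocos, in a daily oral dose of 20 mg/kg over 14 days starting on day 15. Each group has 4 libraries of 1 labelled batch, and no unstressed mice were given the compound among these samples. Whether each library comes from its own animal is not stated in the labels. The p-values therefore reflect only how these 12 libraries vary, part of which may be technical.

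Library totals lay between 17083260 and 27479083 estimated counts, and 18600 genes were tested. Hippocampal neuron markers (10 genes) summed to between 953 and 1274 CPM (counts scaled to the library total) in every library. Of 11 markers of blood lymphocytes and granulocytes, 9 had under 10 counts in every library, and the list summed to at most 1.97 CPM. Treatment replicates 2 and 3 have library numbers far from the rest. Where a value reported from a fit without them moved by over 1.5 times, it is also given without them, but not every gene has such a value. In whole tissue, fewer cells of a type and less RNA per cell cannot be told apart.

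Interferons are secreted proteins that bind receptors on the cell surface and activate STAT transcription factors through JAK kinases. Type I interferon acts mainly through a complex that contains STAT2 and IRF9 and binds the interferon-stimulated response element (ISRE), and type II interferon mainly through gamma-activated sites (GAS). In the brain, microglia, astrocytes, endothelial cells and neurons can all respond, and many of these genes have a low basal level in healthy tissue.

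Promoters are shown for Tgtp1, the gene of the 35 that passed the test, and for Tgtp2, Igtp and Irgm2, IRG genes that share its motif arrangement. Ifit3 is shown as a promoter with a different arrangement. Each sequence is the 160 bases before the RefSeq transcription start (assembly GRCm38.p6), written 5′ to 3′ on the gene's strand. Capitals mark matches to an ISRE-like motif (GAAA, any 2 bases, GAAA) or a GAS-like motif (TTC, any 3 bases, GAA), searched on both strands. Tgtp1 is from chr11:48992247-48992406 (minus strand), Tgtp2 from chr11:49064213-49064372 (minus strand), Igtp from chr11:58199396-58199555 (plus strand), Irgm2 from chr11:58214817-58214976 (plus strand) and Ifit3 from chr19:34583369-34583528 (plus strand).
Tgtp1: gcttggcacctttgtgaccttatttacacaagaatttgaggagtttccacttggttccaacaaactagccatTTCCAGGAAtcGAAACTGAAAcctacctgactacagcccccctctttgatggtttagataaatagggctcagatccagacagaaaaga
Tgtp2: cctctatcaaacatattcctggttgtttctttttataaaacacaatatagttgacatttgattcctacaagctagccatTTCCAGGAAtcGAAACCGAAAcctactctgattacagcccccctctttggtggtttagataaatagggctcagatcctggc
Igtp: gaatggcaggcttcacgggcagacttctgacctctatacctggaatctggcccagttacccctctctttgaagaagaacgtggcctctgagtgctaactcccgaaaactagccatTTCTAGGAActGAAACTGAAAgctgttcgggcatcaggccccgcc
Irgm2: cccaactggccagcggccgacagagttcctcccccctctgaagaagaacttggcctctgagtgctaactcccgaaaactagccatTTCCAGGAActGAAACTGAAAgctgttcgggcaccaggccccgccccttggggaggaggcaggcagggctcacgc
Ifit3: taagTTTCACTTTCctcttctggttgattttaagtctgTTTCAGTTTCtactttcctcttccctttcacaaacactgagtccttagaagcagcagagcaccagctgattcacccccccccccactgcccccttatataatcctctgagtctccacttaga

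In these 4 IRG promoters a GAS-like motif ended 2 bases before an ISRE-like motif. The ISRE-like motif began 77 bases before the start in Tgtp1, 70 in Tgtp2, 34 in Igtp and 64 in Irgm2. This joint arrangement of GAS-like motif, 2 bases and ISRE-like motif was looked for after it had been seen. It was in 5 of the 32851 RefSeq promoters of 300 bases around the start, or 0.0152%. The other promoter that held it was that of Gm12185. Ifit3, by contrast, held an ISRE-like motif at 2 places on the other strand, beginning 156 and 122 bases before the start, and no GAS-like match. The arrangement is not a trait of all IRG genes: the promoter of Irgm1, not shown, held an ISRE-like motif at 2 places and no GAS-like match.

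RefSeq promoters were matched for 28 of the 35 genes by symbol. The ISRE-like motif was in the promoters of 17 of these 28 genes (60.7%), against 3.99% of all 27025 genes. The GAS-like motif was in those of 10 of the 28 (35.7%), against 9.55% of all genes. Bst2, Gbp7, Igtp, Irgm2, Oas1a, Tgtp1 and Tgtp2 held both motifs. These are matches of letters, and no binding was measured.

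The basal levels of the 35 genes spanned a wide range per transcript length. Ifi27, which encodes a small mitochondrial and membrane protein, had the highest level, with a mean of 33.5 FPKM (fragments scaled by gene length and library total) over the 12 libraries and a range of 25.9 to 43.3. Stat2 followed with 9.27 FPKM, Lgals3bp with 8.17, Cmpk2 with 6.59, Irf9 with 5.17 and Ifit3 with 4.35. In the order of means the ranges of neighbouring genes overlapped, except that every Ifi27 value exceeded the highest Stat2 value of 12.2 FPKM and every Irgm1 value, from 2.76 FPKM, exceeded the highest Ifit2 value of 2.60 FPKM. At the low end, Oas2 stood at 0.178 FPKM and Mx1 at 0.12. The IRG and GBP genes lay between 0.495 FPKM for Tgtp2 and 3.5 FPKM for Irgm1, and Mx1, a GTPase of another family, was below them.

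**Figure D1:**
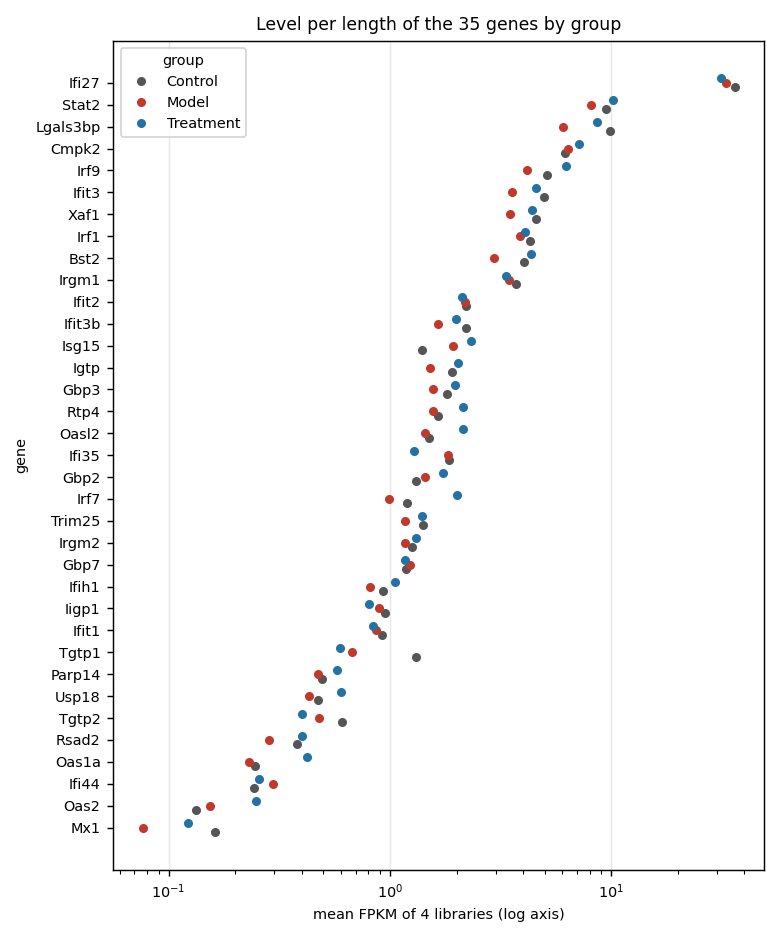
Mean FPKM of each of the 35 genes in Control, Model and Treatment (each point is the mean of 4 libraries, log axis). The 3 groups lie close together for most genes, and Tgtp1 shows the Control point well to the right of the other 2.

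In Model against Control, which addresses what stress changes, 1 of the 34 tested genes passed an adjusted p of 0.05, and it fell: Tgtp1. Over all 18600 genes 0.79% passed in this comparison, 0.339% higher and 0.452% lower. At an unadjusted p under 0.05 there were 0 higher and 3 lower among the 34, where 15.6% of all genes reached it (7.72% higher and 7.85% lower). The fold change was negative in 27 of the 34 and positive in 7, with a median of -0.10 on the log2 scale, against -0.01 over all genes tested. In CPM the libraries of the 2 groups did not overlap for 4 genes, all lower in Model (Tgtp1, Ifit3, Trim25 and Gbp3). Of all genes 11.4% did not overlap (5.95% higher and 5.46% lower).

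In Treatment against Model, which addresses what the compound changes in stressed mice, 0 of the 34 passed in edgeR, where 1.88% of all genes did (1.18% higher and 0.704% lower). The count was also 0 in limma-voom and in DESeq2, with or without its independent filter. At an unadjusted p under 0.05 there were 5 higher and 1 lower, where 18.5% of all genes reached it (9.78% higher and 8.69% lower). The fold change was positive in 25 and negative in 9, with a median of 0.22, against 0.00 over all genes. Without Treatment replicates 2 and 3 the median was 0.03, with 23 positive and 11 negative, so its size rested on those libraries. The groups did not overlap for 3 genes, all higher in Treatment, where 9.5% of all genes did not overlap (5.14% higher and 4.36% lower). These were Stat2, Trim25 and Cmpk2, which encodes a mitochondrial nucleotide kinase and is named after its values were seen. Model is shared by the first and the second comparison, so opposite signs in them are not separate evidence.

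In Treatment against Control, Tgtp1 again was the 1 gene that passed, and it fell, where 0.102% of all genes passed (0.0645% higher and 0.0376% lower). At an unadjusted p under 0.05 there were 3 higher and 3 lower, where 13.9% of all genes reached it (7.31% higher and 6.56% lower). The fold change was positive in 20 and negative in 14, with a median of 0.04, against -0.01 over all genes, and without Treatment replicates 2 and 3 the median was -0.09, with 12 positive and 22 negative. In CPM the groups did not overlap for Stat2, higher in Treatment, and for Tgtp1 and Ifi35, lower in Treatment. Of all genes 7.24% did not overlap (3.99% higher and 3.24% lower). Ifi35, a leucine zipper protein, is named after its values were seen.

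**Figure D2:**
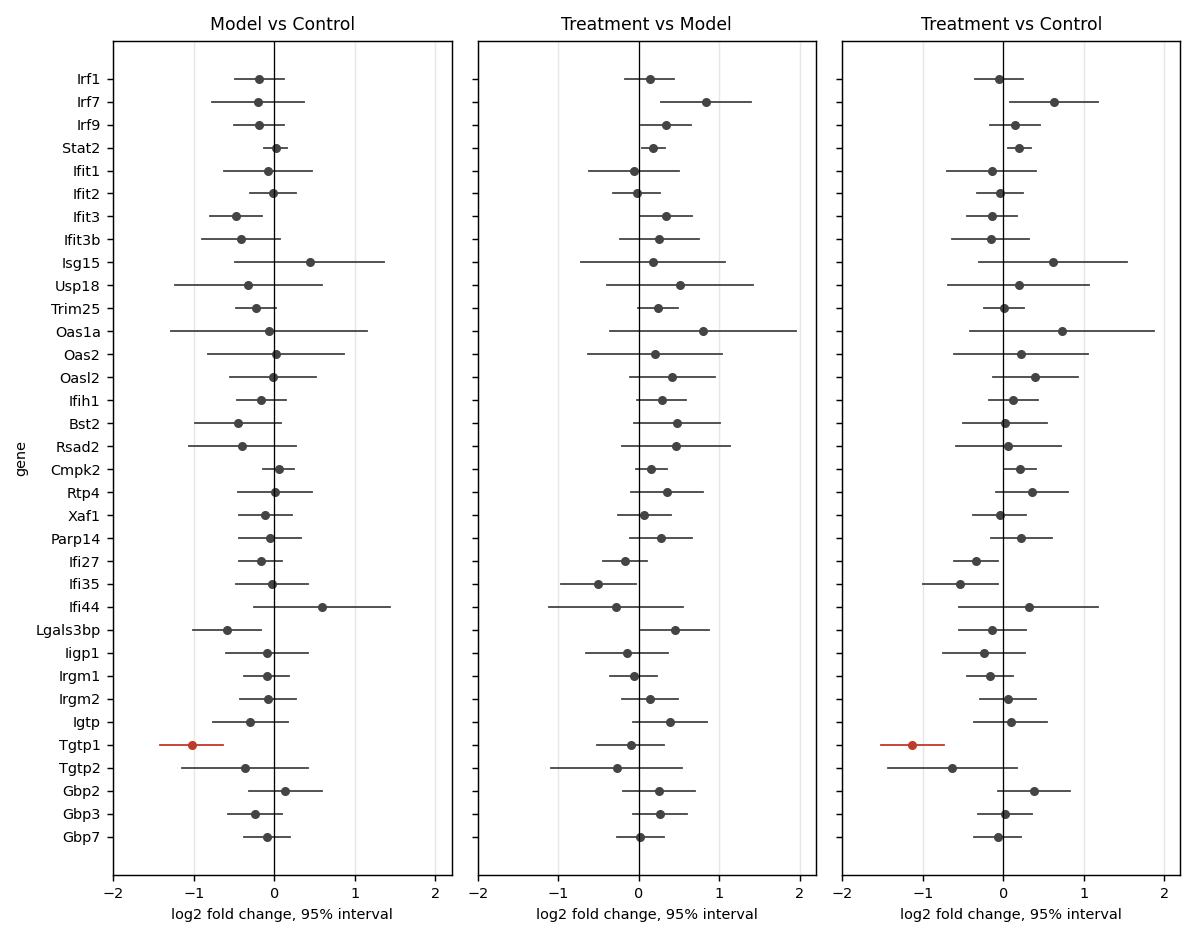
Log2 fold changes of the 34 tested genes with 95% intervals from edgeR, in each comparison, ordered by role. Tgtp1, in red, passed an adjusted p of 0.05 in Model against Control (-1.03) and in Treatment against Control (-1.13).

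These tests could see some sizes of change and not others. The 95% interval of the log2 fold change lay within 1 unit of 0 for 26 of the 34 genes in Model against Control, 25 in Treatment against Model and 26 in Treatment against Control. It lay within 0.5 of 0 for 15, 10 and 13 genes. The SE ran from 0.07 for Stat2 to 0.57 for Oas1a in Model against Control. Stat2 had at least 415 estimated counts in each library and Oas1a as few as 3.

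Tgtp1 encodes a T-cell-specific guanine nucleotide triphosphate-binding protein of the IRG family, GTPases that coat vacuoles holding intracellular parasites. It lies at chr11:48876154-48883085 (GRCm39), in a cluster with Irgm1 and Tgtp2. Its level was 3.35, 3.08, 2.50 and 2.82 CPM in Control replicates 1 to 4, 1.33, 1.43, 1.54 and 1.46 CPM in Model, and 1.28, 1.62, 1.36 and 1.12 CPM in Treatment. Every Control library lay above every stressed library, treated or not, while Model and Treatment overlapped. Tgtp1 fell by 1.03 ± 0.18 (SE) on the log2 scale in Model (adjusted p = 0.0212) and by 1.13 ± 0.19 in Treatment (adjusted p = 0.0394), each against Control. Between Treatment and Model the difference was -0.10 ± 0.20 (adjusted p = 0.842), with a 95% interval of -0.52 to 0.31. These levels rest on 25.3 to 85.2 estimated counts per library.

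Tgtp2, the neighbouring copy at chr11:48948021-48955031 (GRCm39), limits this result. The longest transcripts of the pair, 2823 and 2810 bases in the GENCODE annotation, align with 99.33% identity, and 71.3% of the 150-base windows of Tgtp1 occur unchanged in Tgtp2, so how reads were split between them is uncertain. Tgtp2 had 1.80, 1.77, 0.699 and 1.92 CPM in Control, 1.69, 1.16, 0.513 and 1.5 in Model, and 0.820, 1.17, 1.41 and 0.646 in Treatment. All 3 groups overlapped, with replicate 3 lowest in Control and in Model. Its differences were -0.36 ± 0.37 in Model against Control (adjusted p = 0.699) and -0.64 ± 0.38 in Treatment against Control (adjusted p = 0.487).

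Summed over both copies, the level was 5.14, 4.84, 3.2 and 4.74 CPM in Control, 3.02, 2.59, 2.05 and 2.96 CPM in Model, and 2.10, 2.79, 2.78 and 1.76 CPM in Treatment. The sum still did not overlap between Control and either stressed group. With the counts of both copies summed before the fit, a choice made after the data were seen, the difference was -0.76 in Model against Control (adjusted p = 0.0818) and -0.94 in Treatment against Control (adjusted p = 0.0884), so neither passed. For Tgtp1 alone, the call against Control was lost in Model without Control 1 or 2 or Model 2, 3 or 4 (adjusted p up to 0.0991), and in Treatment in all but 2 of the 12 fits that left out a library (adjusted p up to 0.116), while the fold change kept its sign. It was also lost with the deposited FPKM at a pseudocount of 0.1 (adjusted p = 0.262 in Model and 0.221 in Treatment) and, in Treatment, with only the 8 libraries compared (adjusted p = 0.0923).

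**Figure D3:**
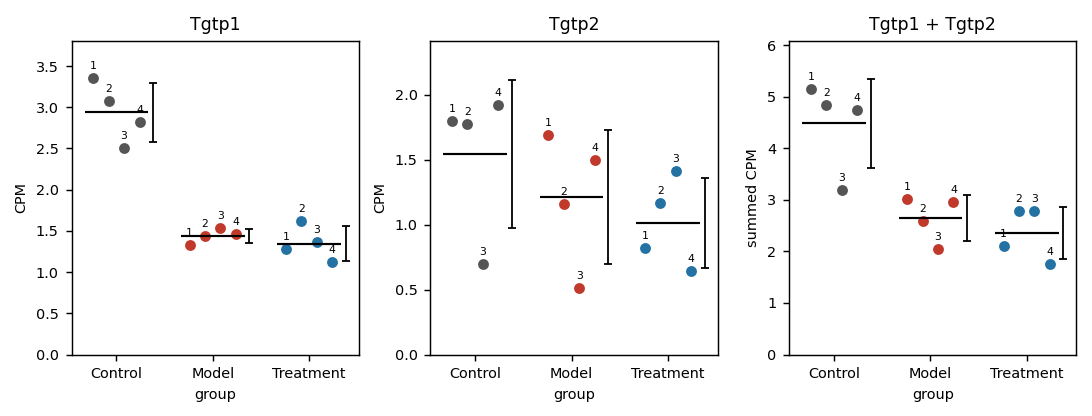
CPM of Tgtp1, of Tgtp2 and of their sum in each library (numbers are replicates, horizontal lines group means, error bars SD of 4 libraries). For Tgtp1 the Control libraries sit between 2.50 and 3.35 CPM and all others at or below 1.62 CPM, while Tgtp2 overlaps in all 3 groups.

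Of the other IRG genes, 0 of 5 passed in any comparison. Irgm1, a regulatory IRG protein of membranes and autophagy, had the highest FPKM of the family and lies at the other end of the Tgtp cluster. It stood at 6.99, 7.67, 5.36 and 7.44 CPM in Control, 6.09, 6.00, 7.04 and 6.65 in Model, and 6.36, 5.88, 7.22 and 5.26 in Treatment. The groups overlapped, and its largest difference was -0.16 ± 0.13 in Treatment against Control (adjusted p = 0.647), and -0.08 to -0.25 when 1 library was left out or Treatment 2 and 3 were. Igtp, also called Irgm3, a regulatory IRG protein of the endoplasmic reticulum, had 4.32, 2.82, 2.15 and 3.84 CPM in Control, 2.27, 2.53, 3.36 and 2.57 in Model, and 4.10, 3.5, 3.74 and 2.76 in Treatment. Igtp thus varied within Control as much as between groups, and its difference in Treatment against Model was 0.39 ± 0.22 (adjusted p = 0.360). All 6 IRG genes had a negative fold change in Model against Control, from -0.08 for Irgm2 to the -1.03 of Tgtp1. Between Irgm1 and Ifi47, an IRG gene on the far side of Tgtp2 (chr11:48752795-48987801, GRCm39), 7 genes were tested and 0 others than Tgtp1 passed in any comparison.

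Igtp and Irgm2 hold the joined motif arrangement shown above, as Tgtp1 and Tgtp2 do. In Model against Control Igtp differed by -0.30 ± 0.22 (adjusted p = 0.561) and Irgm2 by -0.08 ± 0.16 (adjusted p = 0.864). Tgtp2 differed by -0.36 and Tgtp1 by -1.03. Irgm1, whose promoter held no GAS-like match, differed by -0.10 ± 0.13. Whether the arrangement bears on these values was not tested.

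Of the transcription factors, 0 of 4 passed in any comparison, and in Treatment against Model all 4 had a positive fold change. Irf7, the factor that amplifies type I interferon production and is itself interferon-inducible, had the smallest adjusted p of the set in that comparison. Its level was 1.26, 2.42, 1.80 and 1.76 CPM in Control, 1.25, 1.38, 1.68 and 2.02 CPM in Model, and 2.36, 2.89, 4.09 and 1.98 CPM in Treatment. Treatment 3 was the highest library, and Treatment 4 lay below Model 4, so the groups overlapped. The difference was 0.83 ± 0.26 in Treatment against Model (adjusted p = 0.107), 0.63 ± 0.26 in Treatment against Control (adjusted p = 0.292) and -0.20 ± 0.27 in Model against Control (adjusted p = 0.776). Without Treatment 2 and 3 the Irf7 difference was 0.45 against Model (adjusted p = 0.541) and 0.25 against Control (adjusted p = 0.812), and without Treatment 3 alone it was 0.39 against Control.

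Stat2, the STAT that acts with IRF9 under type I interferon, gave a smaller difference with a narrower error. It had 23.1, 24.6, 24.2 and 23.1 CPM in Control, 24.0, 25.9, 22.2 and 24.2 CPM in Model, and 29.6, 27.3, 26.4 and 25.9 CPM in Treatment. Each Treatment library lay above each library of the other 2 groups in CPM, the closest being Treatment 4 and Model 2. In FPKM Treatment 4 (8.486) lay below every Control library, the lowest being Control 1 (8.493). The difference was 0.18 ± 0.07 in Treatment against Model (adjusted p = 0.159) and 0.20 ± 0.07 in Treatment against Control (adjusted p = 0.199), and 0.02 ± 0.07 in Model against Control (adjusted p = 0.931). Irf9, the DNA-binding partner of STAT2, ranged from 8.79 to 11.1 CPM in Control, 7.88 to 9.09 in Model and 8.4 to 14.7 in Treatment, and Irf1 from 4.05 to 6.75 CPM over all libraries.

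The IFIT genes encode proteins that bind viral RNA, and 0 of 4 passed. All 4 had a negative fold change in Model against Control, with a median of -0.24, and in Treatment against Control. In Model against Control, however, Ifit1 (-0.08 ± 0.26) and Ifit2 (-0.01 ± 0.14) differed by less than their SE. The size of that median thus came from Ifit3 and Ifit3b, which share sequence, and a fall of the whole family was not shown. In Treatment against Control each of the 4 differed by less than its SE. Ifit3 had 7.04, 8.07, 6.75 and 7.44 CPM in Control, 4.76, 5.23, 4.71 and 6.39 CPM in Model, and 5.18, 7.04, 8.38 and 6.03 CPM in Treatment. Each Model library lay below each Control library, and Treatment overlapped both. The difference was -0.48 ± 0.15 in Model against Control (adjusted p = 0.140) and 0.33 ± 0.15 in Treatment against Model (adjusted p = 0.251). The latter was 0.20 without Treatment 3 and 0.09 without Treatment 2 and 3 (adjusted p = 0.865). Its copy Ifit3b, of which 16.0% of the 150-base transcript windows also occur in Ifit3, had 4.42, 4.70, 2.74 and 3.39 CPM in Control, 2.00, 3.25, 2.84 and 3.48 in Model, and 2.2, 3.85, 3.94 and 3.75 in Treatment. Ifit3b overlapped in all groups (-0.41 ± 0.23 in Model against Control, adjusted p = 0.416, and -0.26 without Model 1). With both copies summed the difference in Model against Control was -0.45 (adjusted p = 0.164).

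Isg15 encodes a ubiquitin-like protein that is attached to other proteins, Usp18 removes it and restrains the receptor, and Trim25 is a ubiquitin ligase that acts on the RNA sensor RIG-I. Of these 3, 0 passed. Trim25 stood at 6.70, 7.78, 7.92 and 7.19 CPM in Control, 6.00, 6.67, 6.57 and 6.01 CPM in Model, and 6.77, 9.12, 6.77 and 7.11 CPM in Treatment. Model was the lowest group, separated from both others by a small gap. The difference was -0.23 ± 0.12 in Model against Control (adjusted p = 0.368) and 0.24 ± 0.12 in Treatment against Model (adjusted p = 0.298). The latter was 0.13 without Treatment 2, the highest library (adjusted p = 0.639), and 0.14 without Treatment 2 and 3. Isg15 was near the detection limit, with 5 to 38 estimated counts per library, and had 0.971, 0.615, 0.291 and 0.613 CPM in Control, 0.979, 0.881, 0.606 and 0.944 in Model, and 0.820, 0.405, 1.92 and 0.732 in Treatment. Its Treatment group held both the highest library and 1 of the lowest, and the difference against Control was 0.62 ± 0.43 (adjusted p = 0.572). It was 0.05 without Treatment 3 (adjusted p = 0.976) and 0.30 without Treatment 2 and 3.

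The OAS genes encode synthetases of the 2-5A signal that activates RNase L. Of 3, 0 passed. Oasl2 had 3.4, 3.33, 1.98 and 2.37 CPM in Control, 2.13, 3.53, 3.31 and 2.10 in Model, and 3.23, 3.34, 5.35 and 2.80 in Treatment. The groups overlapped and Treatment 3 was the highest library (0.42 ± 0.25 in Treatment against Model, adjusted p = 0.399). Without it the Oasl2 difference was 0.17 (adjusted p = 0.758), and without Treatment 2 and 3 it was 0.13 (adjusted p = 0.895). Oas1a had 0.437, 0.181, 0.233 and 0.736 CPM in Control, 0.356, 0.165, 0.513 and 0.472 in Model, and 0.410, 0.862, 1.21 and 0.215 in Treatment. Treatment 2 and 3 were its highest libraries, and the difference in Treatment against Model, 0.80 ± 0.55 (adjusted p = 0.471), was 0.35 without Treatment 3 and -0.30 without both.

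Among the sensor and other effectors, 0 of the 11 tested genes passed in any comparison. Lgals3bp, a secreted glycoprotein that binds galectins, had 17.9, 22.2, 21.9 and 13.7 CPM in Control, 12.8, 10.2, 15.1 and 12.2 CPM in Model, and 12.7, 19.1, 24.3 and 12.9 CPM in Treatment. Control 1 to 3 and Treatment 2 and 3 were the high libraries, and the groups overlapped. The difference was -0.59 ± 0.20 in Model against Control (adjusted p = 0.163) and 0.45 ± 0.20 in Treatment against Model (adjusted p = 0.24), the latter 0.23 without Treatment 3 and 0.02 without Treatment 2 and 3. The same libraries were high for markers of the choroid plexus, tissue that adjoins the hippocampus: its 8 markers summed to 1726, 2118, 2305 and 702 CPM in Control, 584, 633, 847 and 628 CPM in Model, and 460, 1434, 1096 and 493 CPM in Treatment. All 8 markers were above 0 in each library. Their part in the Lgals3bp values was not tested.

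Ifi27 had 19.0, 21.9, 24.6 and 18.2 CPM in Control, 17.7, 18.8, 19.6 and 18.1 CPM in Model, and 13.9, 14.9, 21.8 and 15.3 CPM in Treatment. Treatment 1, 2 and 4 were the lowest libraries of all, while Treatment 3 was among the highest. The difference in Treatment against Control was -0.34 ± 0.13 (adjusted p = 0.247). It passed in 2 of 23 alternatives: without Treatment 3 (-0.50, adjusted p = 0.0467) and with no filter on low counts (-0.33, adjusted p = 0.0495). In 21 it did not pass. The remaining tested effectors had fold changes between -0.45 (Bst2, a tether of budding virus) and 0.59 (Ifi44) in Model against Control. Rsad2, which encodes viperin, ranged from 0.513 to 1.82 CPM over all libraries, Ifih1, the RNA sensor MDA5, from 3.5 to 5.13, and Cmpk2, which neighbours Rsad2 on chromosome 12, from 15.8 to 22.1.

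**Figure D4:**
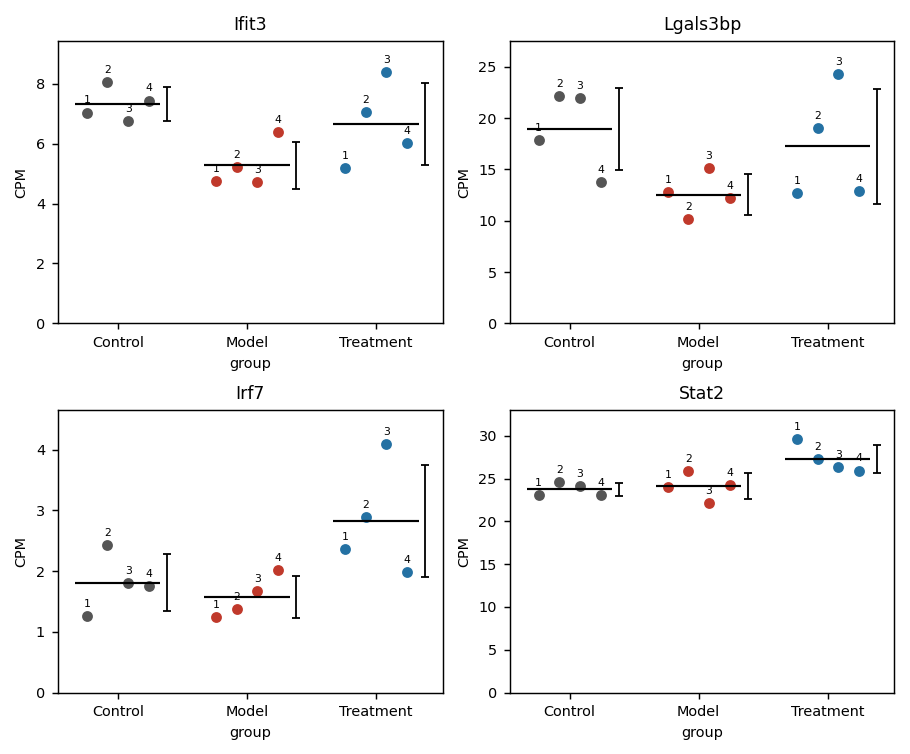
CPM of Ifit3, Lgals3bp, Irf7 and Stat2 in each library (numbers are replicates, horizontal lines group means, error bars SD of 4 libraries). Model lies below Control without overlap for Ifit3, and Treatment lies above both other groups for Stat2.

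The GBP genes encode large interferon-inducible GTPases that attack pathogen-containing vacuoles, and 0 of 3 passed. Gbp2 had 3.30, 3.0, 1.98 and 3.47 CPM in Control, 2.22, 3.64, 3.59 and 3.60 CPM in Model, and 4.61, 3.60, 4.29 and 3.02 CPM in Treatment. The groups overlapped, and the difference was 0.39 ± 0.21 in Treatment against Control (adjusted p = 0.439). Gbp3 had 3.88, 4.38, 3.90 and 3.88 CPM in Control, 2.67, 3.64, 3.63 and 3.69 CPM in Model, and 4.36, 3.65, 4.90 and 3.45 CPM in Treatment. In CPM Model lay below Control without overlap and Treatment overlapped both (-0.24 ± 0.16 in Model against Control, adjusted p = 0.504). In FPKM Model 3 (1.92) and Model 4 (1.74) exceeded the lowest Control library (1.65), so those groups overlapped. Gbp7 stayed between 4.61 and 6.31 CPM over all libraries.

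By library, the 34 genes were highest together in Treatment 3. That library held the highest of 12 values for 11 genes (32.4%), where it did so for 13.5% of all genes tested. Model 1, 2 and 3 held the highest value for 0 of the 34 genes, where they did so for 5.62%, 7.83% and 7.67% of all genes. Model 3 held the lowest for 8 (23.5%, against 8.72% of all genes). Model 1 and Control 3 each held the lowest for 6 (17.6%, against 5.55% and 7.81% of all genes), and Model 2 for 5 (14.7%, against 8.13%). The mean log2 level around each gene's mean was 0.14, 0.08, -0.16 and 0.10 in Control, -0.18, -0.15, -0.17 and 0.08 in Model, and -0.03, 0.11, 0.34 and -0.16 in Treatment. Control 3 and Model 4 thus lay on the other side of 0 from the other libraries of their groups.

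**Figure D5:**
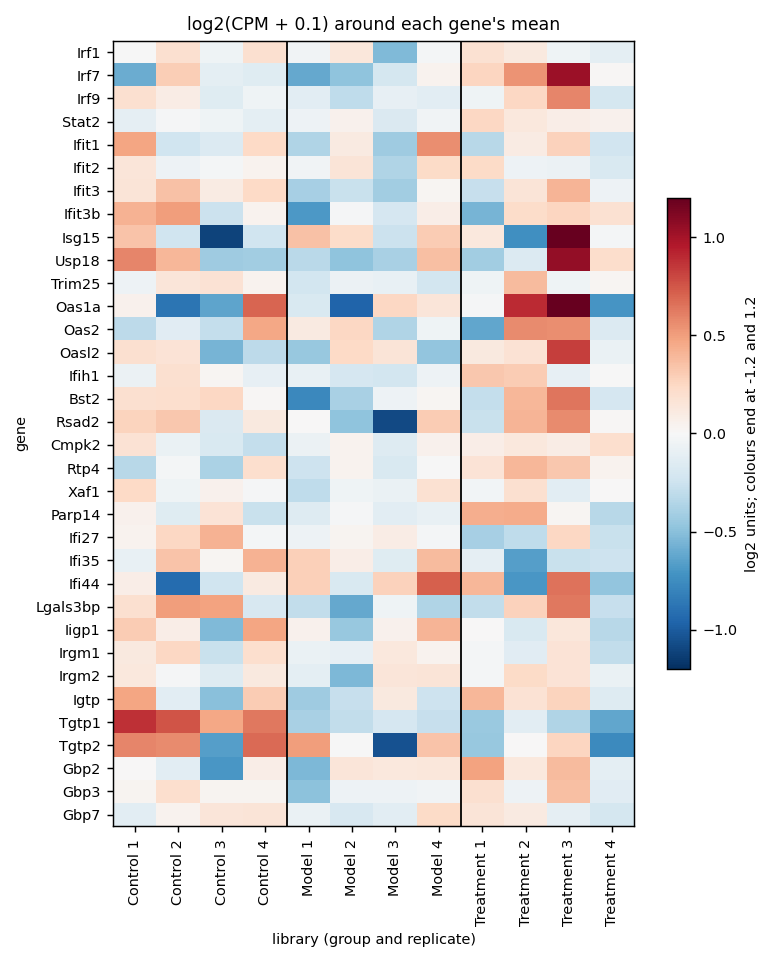
Level of the 34 tested genes in the 12 libraries as log2(CPM + 0.1) around each gene's mean, genes ordered by role (colours end at -1.2 and 1.2). Treatment 3 is red for most genes from Irf7 to Oasl2, and the Tgtp1 row is red in Control and blue elsewhere.

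Cell type markers moved beside these values. The 10 endothelial markers summed to 209 to 232 CPM in Control, 207 to 221 in Model and 237 to 284 in Treatment. Of the 10, 2 passed as higher in Treatment against Model. In Model against Control 1 passed as lower, while 5 of the 10 were positive and 5 negative. The 8 markers of pericytes and vascular muscle summed to 174 to 190 CPM in Control, 171 to 179 in Model and 202 to 224 in Treatment, where Treatment overlapped neither other group and 0 markers passed. The 10 microglial markers summed to 370 to 404 CPM in Control, 330 to 386 in Model and 374 to 407 in Treatment, and 0 passed in any comparison. Of these 10, 9 were negative in Model against Control and 10 positive in Treatment against Model. The hippocampal neuron markers summed to 994 to 1181 CPM in Control, 1105 to 1274 in Model and 953 to 1117 in Treatment. All 10 were positive in Model against Control, with 0 calls, and 8 of 10 were negative in Treatment against Model, where Prox1 (adjusted p = 0.0331) and Calb1 (adjusted p = 0.0341), both of granule cells among others, passed as lower. Over all genes 1.18% passed as higher and 0.704% as lower in Treatment against Model, and 0.452% as lower in Model against Control. Both comparisons share the Model libraries, so opposite signs of markers in them are not separate evidence.

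Markers of blood and of adjoining tissue also differed between groups. The 5 red blood cell markers summed to 223 to 384 CPM in Control, 148 to 245 in Model and 192 to 253 in Treatment, and 1 passed as lower in Model against Control. The 6 leptomeningeal markers summed to 157 to 229 CPM in Control, 114 to 157 in Model and 97.8 to 164 in Treatment, and 1 passed as lower in Model against Control. Of the choroid plexus markers given above 1 passed as lower in that comparison. Of 6 astrocyte markers 1, Aldh1l1, passed as higher in Treatment against Model, where 3 of the 6 were positive and 3 negative. The 6 summed to 2204 to 2327 CPM in Control, 2051 to 2279 in Model and 2152 to 2368 in Treatment. Every marker of these lists had counts in each library. Their part in the values of the 34 genes was not tested.

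The rest of the pathway, from a list written with earlier results known, gave 0 calls in edgeR in any comparison, 8 signalling genes and 7 further IRF genes included. No interferon gene of the 10 listed had enough counts to be tested. Of 5 tested receptor genes the smallest p was that of Ifngr2, a chain of the type II receptor (-0.17 ± 0.07 in Treatment against Model, adjusted p = 0.221). Of 12 tested nucleic acid sensors and adaptors it was Tlr9, the sensor of unmethylated DNA (0.55 ± 0.23 in Treatment against Model, adjusted p = 0.214, and 0.36 without Treatment 1). Ddx58, the symbol listed for RIG-I, was not found, so that sensor is not covered here.

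Of 42 tested other interferon-stimulated genes, 0 passed in edgeR in any comparison, and 5, 6 and 7 had an unadjusted p under 0.05 in Treatment against Model, Model against Control and Treatment against Control, where 18.5%, 15.6% and 13.9% of all genes did. In Treatment against Model 36 were positive and 6 negative, with a median of 0.19. Over all 18600 genes that median was 0.00, with 9371 positive. In Model against Control 16 were positive and 26 negative, with a median of -0.06. In Treatment against Control 32 were positive and 10 negative, with a median of 0.12. Around each gene's mean, the 42 averaged -0.13, -0.09, -0.16 and -0.03 log2 units in Model. In Treatment they averaged 0.10, 0.12, 0.27 and -0.04. Treatment 4 thus lay below Model 4, and the medians were not computed without Treatment 2 and 3. Ly6e, a lipid-anchored membrane protein, had the smallest p. Its level was 124, 137, 145 and 148 CPM in Control, 154, 145, 158 and 146 in Model, and 165, 150, 187 and 177 in Treatment. Treatment lay above Control without overlap (0.30 ± 0.07, adjusted p = 0.109). Of 18 other GTPases listed for these families 13 were found by symbol and 9 tested. Among those 9 the smallest p was that of Irgq, an IRG-like gene (0.21 ± 0.05 in Model against Control, adjusted p = 0.0739). In DESeq2 Ly6e (adjusted p = 0.00917) passed in Treatment against Control and Irgq (adjusted p = 0.00476) in Model against Control.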

How the data were processed

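The tools named in the submitters' processing notes are Salmon 1.10.1, STAR 2.7.10a, FastQC 0.12.1, cutadapt 3.4 and Trim Galore 0.6.7, with build GRCm39 and no roles given. The authors deposited estimated counts per gene (28.8% of nonzero values not whole at a tolerance of 1e-06) and FPKM. Strand is not given in the sources used here, so Irf1, Irf7, Irf9 and Rtp4, which overlap other tested genes, may share reads with them.

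Counts were rounded and fitted in edgeR 4.0.16 (R 4.3.3; filterByExpr, TMM, quasi-likelihood, 1 mean per group over 12 libraries), with Benjamini-Hochberg adjustment over 18600 genes, threshold 0.05. CPM use TMM-scaled totals, and per-library scores use a prior count of 2. Members, lists and tests were chosen with earlier results of these data known. Named were genes that passed, the 2 of smallest p and the highest FPKM per role, and 1 gene per pathway list (2 of these are not reported here); other names were chosen after their values were seen. Promoters came from RefSeq (GRCm38.p6) and transcripts from GENCODE. The fit was tested on simulated data. Alternatives used DESeq2 1.42.0 and limma 3.58.1, other filters and scaling, FPKM and left-out libraries. Reads were not realigned.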

Additional observations from a re-analysis of the deposited data

Results flagged for a closer look

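Of 105 sets of 4 libraries (35 genes in 3 groups), 8 had a library whose gap to its nearest neighbour relative to the group's range was over Dixon's 95% critical value, and chance flags about 1 in 20 sets. Those at the low end were Irf9 in Model 2 (7.88 CPM, nearest 8.92), Ifit3b in Treatment 1 (2.2, nearest 3.75), Tgtp2 in Control 3 (0.699, nearest 1.77), Gbp2 in Model 1 (2.22, nearest 3.59) and Gbp3 in Model 1 (2.67, nearest 3.63). Those at the high end were Usp18 in Model 4 (0.772 CPM, nearest 0.445), Trim25 in Treatment 2 (9.12, nearest 7.11) and Gbp3 in Control 2 (4.38, nearest 3.90). The gap of Tgtp2 in Control 3 also lowers the summed Tgtp1 and Tgtp2 level of that library.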

How the results depend on the processing

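The number of genes called over the whole table depended strongly on the setting, and for each of these changes the cause was not tested. In Model against Control 147 genes were called, but 692 in DESeq2, 605 in DESeq2 without its independent filter, 88 in limma-voom, 783 with no filter on low counts, 452 with only the 8 libraries compared, 284 without Treatment 2 and 3, and 5 with FPKM at either pseudocount. In Treatment against Model 350 were called, but 1099 in DESeq2, 938 without its filter, 1090 with no filter on low counts, 137 with 8 libraries, 132 without Treatment 2 and 3, and 114 and 111 with FPKM at pseudocounts of 0.1 and 1. In Treatment against Control 19 were called, but 12 with RLE scaling, 440 in DESeq2, 374 without its filter, 9 in limma-voom, 748 with no filter on low counts, 2 with 8 libraries, 130 without Treatment 2 and 3, and 9 with FPKM at a pseudocount of 1. Leaving out each library gave 8 to 273, 0 to 459 and 0 to 73 calls in the 3 comparisons.

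The settings tested different numbers of the 35 genes: 34 in the main fit, 35 with no filter on low counts and 30 with FPKM. With 8 libraries 31, 33 and 32 were tested in the 3 comparisons. Among those tested, Model against Control had 1 call, 0 in DESeq2 and with FPKM at either pseudocount. It had 2 with no filter on low counts (Tgtp1 and Lgals3bp). Treatment against Model had 0 calls, and 1 with no filter on low counts (Lgals3bp). Treatment against Control had 1 call, 0 in DESeq2, with 8 libraries and with FPKM at either pseudocount, and 2 with no filter on low counts (Tgtp1 and Ifi27). Leaving out each library gave 0 to 1, 0 to 0 and 0 to 2 calls. DESeq2's independent filter left 15, 15 and 14 of the 34 genes, Tgtp1 among them, with no adjusted p. Without that filter Tgtp1 passed in Model against Control (-1.02, adjusted p = 0.00175) and Treatment against Control (-1.13, adjusted p = 9.00e-04). The fold change of Oas1a in Treatment against Model was -0.30 without Treatment 2 and 3.

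Same-numbered libraries share only a number: the correlations of their deviations from the group means lay between -0.04 and 0.11. With a replicate block 228, 431 and 118 genes were called in the 3 comparisons, and 1, 0 and 1 of the 34, where Tgtp1 kept both calls (adjusted p = 0.0286 and 0.0335). Depth limits the low genes most: Oas1a, Oas2, Isg15, Usp18 and Ifi44 had fewer than 10 estimated counts in at least 1 library.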
